A study of Mus musculus with 2 samples.

Results

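The regions described here are the methylated regions that were called over control in the cortical plate (CP), the layer of differentiating neurons in the fetal cortex, on chromosomes 1 to 19 of the mouse. They are all peaks of the CP control table on these chromosomes, each counted once: 50968 of the 53404 peaks of that table. The others lay on X (2294), on Y (21) or on unplaced sequence (121). The tissue was dissected by hand from ICR embryos at embryonic day 16. The other layer of the series, the progenitor-rich V/SVZ of ICR embryos of the same stage, is set beside it, with 50667 autosomal peaks over control. Both lists end at 65535 lines, with 1 or more lines per peak. Their near-equal peak counts therefore cannot be read as like numbers of methylated regions. Neither group carries a treatment or an allele in the labels, which do not say how many embryos went into a library. What served as the control of either peak list is not stated in the labels or file headers.

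DNA methylation in mammals sits mostly on cytosines of CpG dinucleotides. CpG-dense promoters are usually free of it, whereas gene bodies and the DNA between genes usually carry it. Promoters of germline genes and 1 parental copy of imprinted control regions are the classic CpG-rich exceptions in somatic tissue, including brain. The assay captures fragments with a methyl-CpG binding protein and sequences them (MBD-seq), so that its signal grows with the number of methylated CpG sites in a fragment. A region poor in CpG can be methylated and still give no peak.

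The promoters that carry this contrast are shown first. Each line gives the 250 bases upstream of the transcript start from RefSeq (build GRCm38.p6), 5′ to 3′, with every CpG in capitals. The first 4 are germline genes with the most tags (sequence reads) in a CP promoter peak among those with a single promoter in that table, and Plagl1 is the imprinted gene chosen in the same way. Tbp, the TATA-binding protein used in every cell, and the odorant receptor gene Olfr1 had no CP peak.
Dazl: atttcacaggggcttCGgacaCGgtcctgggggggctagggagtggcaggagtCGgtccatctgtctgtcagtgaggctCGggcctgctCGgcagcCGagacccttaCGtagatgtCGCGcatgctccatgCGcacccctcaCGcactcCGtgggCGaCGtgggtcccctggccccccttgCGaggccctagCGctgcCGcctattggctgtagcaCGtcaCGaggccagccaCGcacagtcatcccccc
Sycp1: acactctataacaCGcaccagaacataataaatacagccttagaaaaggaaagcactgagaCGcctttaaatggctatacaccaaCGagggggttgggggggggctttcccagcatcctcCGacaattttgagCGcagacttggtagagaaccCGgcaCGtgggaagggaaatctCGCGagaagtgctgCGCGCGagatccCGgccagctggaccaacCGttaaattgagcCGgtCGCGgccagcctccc
Sycp2: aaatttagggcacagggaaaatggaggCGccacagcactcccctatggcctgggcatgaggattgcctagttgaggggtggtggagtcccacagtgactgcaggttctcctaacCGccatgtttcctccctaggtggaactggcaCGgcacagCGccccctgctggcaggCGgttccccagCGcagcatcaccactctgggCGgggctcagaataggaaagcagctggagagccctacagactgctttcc
Mael: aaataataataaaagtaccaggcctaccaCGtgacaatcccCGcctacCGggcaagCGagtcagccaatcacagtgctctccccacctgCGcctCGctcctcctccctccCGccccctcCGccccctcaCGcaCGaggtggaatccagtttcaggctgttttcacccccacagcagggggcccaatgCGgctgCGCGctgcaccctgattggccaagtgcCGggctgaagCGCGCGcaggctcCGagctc
Plagl1: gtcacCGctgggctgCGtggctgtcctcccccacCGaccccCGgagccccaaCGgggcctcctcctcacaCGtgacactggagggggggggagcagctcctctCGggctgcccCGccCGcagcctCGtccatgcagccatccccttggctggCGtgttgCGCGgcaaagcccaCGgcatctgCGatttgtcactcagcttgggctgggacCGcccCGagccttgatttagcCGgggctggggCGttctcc
Tbp: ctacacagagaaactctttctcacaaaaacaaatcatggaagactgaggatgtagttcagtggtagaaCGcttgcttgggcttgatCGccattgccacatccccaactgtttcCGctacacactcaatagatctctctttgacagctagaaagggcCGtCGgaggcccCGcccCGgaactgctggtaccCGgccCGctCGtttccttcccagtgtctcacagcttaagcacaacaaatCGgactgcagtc
Olfr1: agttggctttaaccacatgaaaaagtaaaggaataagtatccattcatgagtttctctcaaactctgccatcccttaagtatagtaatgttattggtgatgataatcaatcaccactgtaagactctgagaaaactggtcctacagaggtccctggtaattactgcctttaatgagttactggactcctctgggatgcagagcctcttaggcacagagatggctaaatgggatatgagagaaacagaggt
The windows lie at chr17:50293621-50293870, minus strand (Dazl), chr3:102936101-102936350, minus strand (Sycp1), chr2:178407659-178407908, minus strand (Sycp2), chr1:166238745-166238994, minus strand (Mael), chr10:13090582-13090831, plus strand (Plagl1), chr17:15499638-15499887, plus strand (Tbp) and chr11:73399496-73399745, minus strand (Olfr1). The printed bases hold 20 CpG in Dazl, 17 in Sycp1, 7 in Sycp2, 18 in Mael and 19 in Plagl1. Those of Tbp hold 11 and those of Olfr1 0. Dazl and Tbp thus both have CpG-containing promoters, and a listed CP peak was found at the first alone.

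The CP library had 1628027 tags in its autosomal peaks, which covered 23.0 Mb. The median peak held 17 tags (quartiles 10 and 34) over 376 bp (quartiles 313 and 534). The lowest tag count was 7 and the highest 1974. Tags were concentrated in few regions: the 2675 peaks with 100 tags or more, 5.25% of the list, held 30.0% of all its tags. At the other end, the 10687 peaks with 7 to 9 tags held 5.20% of them. Peaks with more tags were longer, with a median of 302 bp at 7 to 9 tags and 811 bp at 100 or more (Spearman's rho of tags and length 0.63 over the 50968 peaks, which share 1 library). In V/SVZ the autosomal peaks held 974963 tags, with a median of 11 tags and 354 bp. The labels and files give no total number of reads per library, so tags were not scaled between the layers.

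The table lists peaks in order of the fold given by the authors' peak caller, and its 65535 lines stop at a fold of 14.71. Peak numbers reach 69397, so that 15993 numbered CP peaks (23.0%), on all chromosomes, are absent from the list. The 14 autosomal peaks at the lowest fold held 20 to 101 tags, so the list does not end where tags run out. A gene named below as having no peak has no listed peak. It may have one of lower fold. The highest fold, 50, was reached by 2056 peaks. Fold and tags were only loosely related (rho 0.30).

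Nearly all listed CP peaks lay away from gene starts. How much of the genome lies at gene starts was not measured, so the shares below cannot show that methylation avoids them. No RefSeq transcript was within 10 kb of 24727 peaks (48.5%, Wilson 95% interval 48.1 to 48.9%), and 20601 (40.4%, 40.0 to 40.8%) lay inside a gene. A promoter, here the 5′ end of a transcript or the 1 kb upstream of it, held 577 peaks (1.13%, 1.04 to 1.23%). A further 2641 peaks (5.18%) were farther upstream, 2226 (4.37%) were downstream and 196 (0.385%) overlapped a 3′ end. In V/SVZ 44.6% of peaks were inside a gene (44.1 to 45.0%) and 44.7% had no gene, and 1.07% were at promoters. The V/SVZ list goes down to a fold of 11.48, and 6299 of the numbered V/SVZ peaks (10.8%) are absent from it. Taken from a fold of 14.71 up, a choice made after seeing the data, it had 42.7% of its peaks inside genes (42.2 to 43.1%), which leaves a smaller difference from CP. Intervals cover counting error only, and 1 library per tissue gives no measure of the spread between animals.

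The few promoter and 3′ end peaks were larger than the others. Length enters these classes: every 3′ end peak spans a transcript end, and 384 promoter peaks span a 5′ end or a whole transcript. A longer peak is more likely to span a given point, so some of the difference can be built into the classes. How much was not tested. Promoter peaks held a median of 31 tags (quartiles 14 and 76) over 524 bp, and 3′ end peaks 30 tags over 550.5 bp. Peaks inside genes held 18 tags over 377 bp, and peaks with no gene 16 over 376 bp. Of the promoter peaks 19.2% had 100 tags or more, against 6.31% of those inside genes and 4.11% of those with no gene. The share of promoters rose from 0.683% of the peaks with 7 to 9 tags (0.544 to 0.858%) to 4.15% of those with 100 or more (3.46 to 4.97%). The plot of tags and length by place shows this order.

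**Figure D1:**
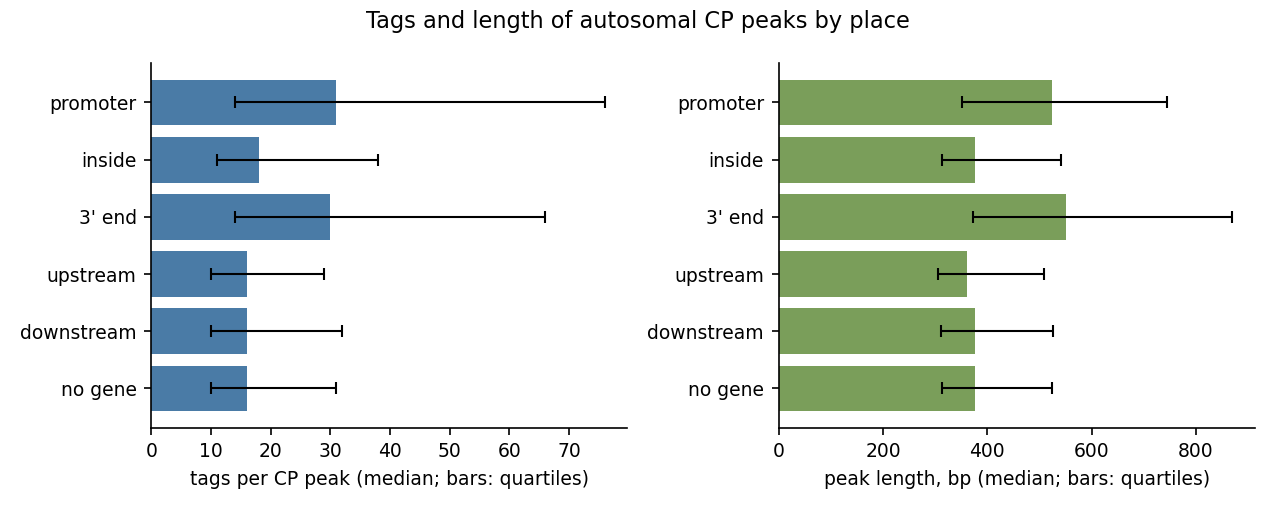
Median tags per autosomal CP peak (left) and median peak length in bp (right) by place relative to RefSeq genes; bars show the quartiles over peaks of 1 library. Promoter and 3′ end peaks are the 2 classes with medians of 30 or more tags and more than 500 bp, and the other 4 lie at 16 to 18 tags. All 3′ end peaks and 384 of 577 promoter peaks span a transcript end or a whole transcript, which a longer peak is more likely to do.

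Most of the CP regions were also called in V/SVZ. A V/SVZ peak overlapped 32326 CP peaks by at least 1 bp (63.4%, 63.0 to 63.8%). The share depended on tags: 30.0% of the peaks with 7 to 9 tags were shared, 51.8% with 10 to 19, 83.4% with 20 to 49, 96.3% with 50 to 99 and 98.8% with 100 or more. The 18642 CP peaks without a V/SVZ partner held a median of 10 tags, and 31 of them had 100 or more. By place, promoter peaks were shared most often (73.3%, 69.6 to 76.8%), followed by 3′ end peaks (68.9%, 62.1 to 74.9%) and peaks inside genes (66.9%, 66.2 to 67.5%). Peaks with no gene (61.1%, 60.5 to 61.7%), downstream (61.1%, 59.0 to 63.1%) and upstream (57.9%, 56.0 to 59.7%) were shared less often than those inside genes. The tags of the classes differ as given above, and their part in these shares was not tested.

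At shared peaks the CP tags were 1.81 times the V/SVZ tags in the median (quartiles 1.25 and 2.57). How much of this is depth is not known, and values below are read beside it. Promoter peaks had a median ratio of 2.21, peaks with no gene 1.88 and peaks inside genes 1.73. The ratio of promoter peaks is over the 423 shared ones, whose median tags were not taken apart. All 577 promoter peaks, shared or not, held a median of 31 tags. Over all shared peaks the median ratio was 2.13 at 20 to 49 CP tags and 2.39 at 50 to 99. The classes were not matched for tags. In whole tissue a higher ratio cannot be split into more methylated copies per cell and more cells that carry them. The X chromosome is not part of these values.

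Among the 12 CP promoter peaks with the most tags, those of Dazl, Sycp1 and Sycp2 belonged to germline genes and those of Vmn2r29, Olfr1344 and Olfr1349 to chemosensory receptor genes. The highest was at Sfi1, a centrin-binding protein of the spindle pole (chromosome 11, 3092648 to 3093950, mm9), with 1808 tags in CP and 815 in V/SVZ. Dux, a double homeobox gene of a repeated array (653 and 356 tags), and Hsf5, a heat shock factor family gene (620 and 183), followed. Dazl, an RNA-binding protein of germ cells, held 529 tags in CP and 177 in V/SVZ (chromosome 17, 50432365 to 50433558). Gm7120, called Tmem267 in the RefSeq table, held 582 CP tags and had no listed V/SVZ peak. The vomeronasal receptor gene Vmn2r29 had 536 tags in CP and 257 in V/SVZ, and the olfactory receptor genes Olfr1344 and Olfr1349 had 308 and 113, and 290 and 72. Fscn2, a fascin of the retina, had 288 and 101. 4922505E12Rik (Ccdc185) had 453 in CP and 164 over 2 V/SVZ peaks. How reads with several matches were placed is not stated in the labels or file headers, so tags at Dux and the receptor genes, which have close copies, are uncertain. The Sfi1 peak held 1388 tags per kb, against a median of 43.9 over all autosomal CP peaks. Whether it lies in repeated sequence was not tested.

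Of 40 autosomal members of a list of germline genes, 26 had a CP promoter peak (65.0%, 49.5 to 77.9%), against 2.66% of the 20665 autosomal protein-coding genes of the RefSeq table. With peaks of a fold of at least 27.51 the count was 10 of the 40. At that fold 26096 of the 50968 peaks remained, of which 1.058% were at promoters, against 1.13% of all. The share of all genes with a promoter peak was not counted at that fold. At least 1 CP peak within 10 kb was present at 31 of the 40, against 56.1% of all these genes (54.6% in V/SVZ). Many of these genes were put on the list because their promoters are known to be methylated in somatic cells, so the list is not independent of its direction. All 26 promoter peaks overlapped a V/SVZ peak, and V/SVZ also had a promoter peak at 26 of the 40, against 2.49% of all genes.

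The germline promoters ran from 13 tags at Hormad2 to 529 at Dazl, with a median of 120. Among genes of the synaptonemal complex, which joins paired chromosomes in meiosis, Sycp3 had no listed CP peak. Sycp1 held 401 tags in CP and 107 in V/SVZ (chromosome 3, 102739192 to 102740243, mm9), Sycp2 held 283 and 76, and Syce1 149 and 64. Hormad1, a protein of meiotic chromosome axes, had 101 in CP and 35 in V/SVZ, and the meiotic cohesin genes Smc1b and Rec8 had 61 and 21, and 30 and 20. The second large set was the piRNA pathway, which silences transposons in germ cells. There Mael held 276 and 115 tags, Mov10l1 250 and 62, Piwil1 238 and 111, Tdrd1 236 and 44, Tdrd9 95 and 22, and Piwil2 59 and 9. Ddx4, a helicase of germ cells, had 136 and 33, and the transcription factor gene Sohlh2 219 and 73. CP was higher in each of these pairs, in unscaled tags.

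Set beside the median of 1.81, 22 of the 26 germline promoters had a higher CP to V/SVZ ratio, and in 17 the exact 95% interval lay wholly above it. Over all shared peaks the ratio was higher in those with more CP tags, with a median of 1.00 at 7 to 9 tags, 1.45 at 10 to 19, 2.13 at 20 to 49, 2.39 at 50 to 99 and 2.37 at 100 or more. CP tags are the numerator of the ratio, and a listed V/SVZ peak held at least 6 tags. Some of this rise is therefore built into the classes. Set beside the shared peaks of their own tag class, a comparison added after seeing the data, 19 of the 26 were higher and 10 had their interval wholly above. The median ratio of the 26 was 2.95. Piwil2 had the highest ratio, 6.56 (exact 3.23 to 15.04, from 9 V/SVZ tags), and Tdrd1 had 5.36 (3.87 to 7.58). Sohlh1, a transcription factor gene of germ cells, had the lowest, 1.28 (0.764 to 2.15). Members without a listed peak were Sycp3, Tdrkh, Tex15, Asz1, Slc25a31, Stk31, D1Pas1, Dppa3 and Ddx25.

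**Figure D2:**
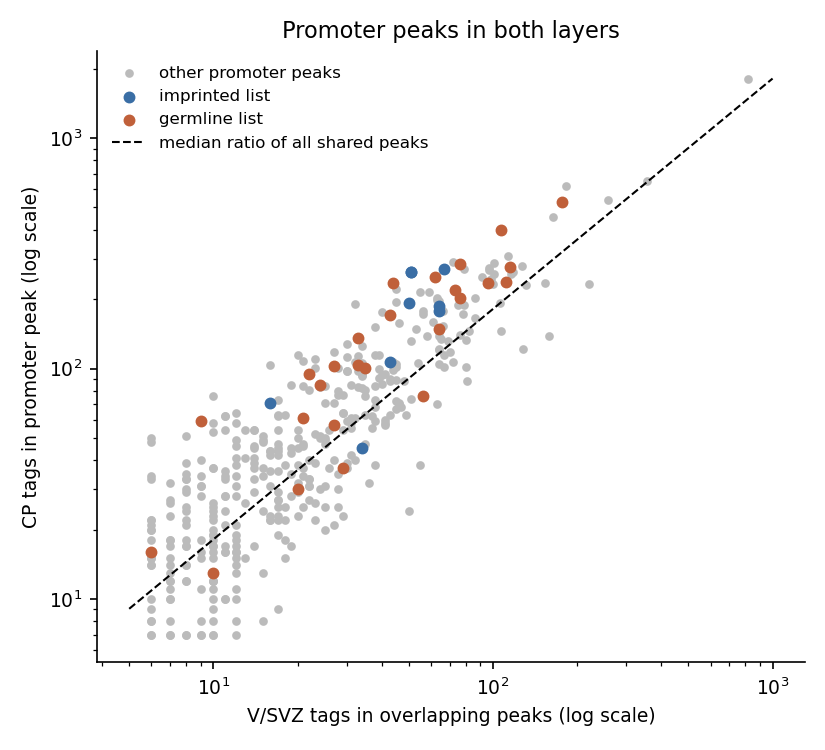
CP tags in each autosomal promoter peak against the tags of the overlapping V/SVZ peaks, on log axes, for the promoter peaks shared by both layers. Germline genes (orange) lie mostly above the dashed line, the median ratio of 1.81 at all shared peaks, with 22 of 26 above it (19 of 26 are above the median of shared peaks with like tags, which is 2.37 at 100 tags or more); imprinted genes are blue, and Peg3 and Usp29 share a point.

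Imprinted genes, which are expressed from 1 parental copy, came next. A CP promoter peak was present at 11 of 40 autosomal members of the list (27.5%, 16.1 to 42.8%), from 10 distinct peaks, against 2.66% of all autosomal protein-coding genes. In V/SVZ 15 of the 40 had one, in a list that goes down to a fold of 11.48 rather than 14.71. The 10 CP peaks had folds of 15.38 to 32.5. Because the lists stop at unlike folds, the counts of the 2 layers are not compared. With CP peaks of a fold of at least 27.51 the CP count was 1, and the share of all genes was not counted at that fold. Plagl1, a zinc finger gene, held 269 tags in CP and 67 in V/SVZ (chromosome 10, 12810175 to 12811167). The peak shared by the oppositely oriented Peg3 and Usp29 held 262 and 51 (chromosome 7, 6681884 to 6683848). Peg12 had 193 and 50, Mkrn3 187 and 64, Nap1l5 178 and 64, Snrpn 107 and 43, and Ndn 71 and 16. The promoters of Slc38a4 (116 CP tags) and Igf2r (13) had no listed V/SVZ peak. The ratio was above 1.81 in 7 of the 8 shared peaks, and its interval wholly above in 6. Beside the shared peaks of the same tag class these counts were 7 and 4. Mcts2 had the lowest ratio, 1.32 (0.829 to 2.13, from 45 CP and 34 V/SVZ tags). The gene with the most CP peaks in the list was the potassium channel gene Kcnq1, with 11. Mest, Nnat, Cdkn1c and Zrsr1 were among the members with no listed CP peak.

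Promoter peaks at cell identity genes are read beside the 2.66% of all genes. No CP promoter peak was listed among 18 upper layer neuron genes, 21 deep layer and subplate genes, 24 radial glia and progenitor genes, 12 intermediate progenitor genes or 16 interneuron genes. None was listed for 15 erythroid or 15 endothelial genes either. Among 23 postmitotic neuron genes Grin2b, an NMDA receptor subunit, had 1 of 25 tags with no listed V/SVZ peak. Among 15 astrocyte genes Gfap, the intermediate filament of astrocytes, had 1 of 106 tags in CP and 34 in V/SVZ. Among 19 microglia and immune genes Spi1 had 33 and 22 tags, and the B cell receptor gene Cd79a 21 and 6. Of 14 oligodendrocyte genes 1, on chromosome 18, had a promoter peak, and of 20 genes of mature non-neural tissues Krt5, an epidermal keratin (45 and 20 tags), and Apoa1 (9 tags in CP) did. A dissected layer holds several cell types, and these DNA libraries do not show from which the tags came.

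Counted anywhere within 10 kb, the same lists are read beside the 56.1% of all genes. The counts were 9 of 18 upper layer, 13 of 21 deep layer, 13 of 24 radial glia, 4 of 12 intermediate progenitor, 14 of 23 postmitotic neuron and 7 of 16 interneuron genes. They were 10 of 15 astrocyte, 8 of 14 oligodendrocyte, 7 of 15 erythroid, 9 of 15 endothelial and 9 of 20 mature tissue genes. Microglia and immune genes had 16 of 19 (84.2%, 62.4 to 94.5%), with 5 peaks at Spi1 and 4 at C1qb, but 9 of 19 by peaks inside the gene. Erythroid genes went from 7 to 1 in that way. Over all 20665 genes the count went from 11589 within 10 kb to 8583 inside the gene. Upper layer genes ranged from 0 peaks at Pou3f2 and Lhx2 to 17 at Cux2, a homeobox factor, and 30 at Cdh13. Deep layer genes ranged from 0 at Fezf2 to 13 at Tshz2, a zinc finger factor. Radial glia and progenitor genes ranged from 0 at genes such as Pax6, Sox2, Nes and Hes1 to 5 at Notch2, with 13 of the 24 at 1 or more.

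Hox genes stood at the other end. None of the 39 Hox genes, which pattern the body axis and are silent in the forebrain, had a listed CP peak within 10 kb (0%, up to 8.97% by the Wilson interval), and none had one in V/SVZ. The genes lie in 4 clusters, so they are not 39 separate observations. Housekeeping genes had a CP peak at 10 of 22 and a promoter peak at none. Actb, a cytoskeletal actin, had 1 peak of 90 tags away from its promoter. Olfactory receptor genes had a peak at 217 of 1104 (19.7%, 17.4 to 22.1%) and vomeronasal receptor genes at 84 of 354 (23.7%, 19.6 to 28.4%), both under the 56.1% of all genes. With peaks inside the gene alone the counts were 32 and 20, and that of housekeeping genes was 4, beside 8583 of all 20665 genes. Promoter peaks were present at 13 olfactory and 3 vomeronasal receptor genes, beside 2.66% of all genes. Zfp zinc finger genes were at 205 of 391 (52.4%), with 4 promoter peaks, of which Zfp872 held the most tags (114 in CP and 39 in V/SVZ).

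Genes with a CP promoter peak lay between the other genes in promoter CpG. In the 300-base RefSeq promoter (250 bases before to 50 after the start, averaged over a gene's promoters), genes with a CP promoter peak had a median of 11 CpG (quartiles 6 and 19, 442 genes with a sequence). All 16457 autosomal genes with a sequence had a median of 14 (4 and 24). Genes with a CP peak elsewhere within 10 kb had 18 (8 and 26), and genes with no CP peak had 7 (2 and 21). The share with a promoter peak was highest in the middle. It was 0.253% of 792 genes with fewer than 1 CpG (0.0693 to 0.916%) and 6.92% of 1619 genes with 6 to under 10 (5.78 to 8.26%). It was 1.45% of 2966 genes with 28 or more (1.08 to 1.95%). Peaks anywhere within 10 kb did not follow this course: 22.7% of the genes in the lowest class had one, 58.6% in the class of 6 to under 10, and 67.2% in the highest.

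**Figure D3:**
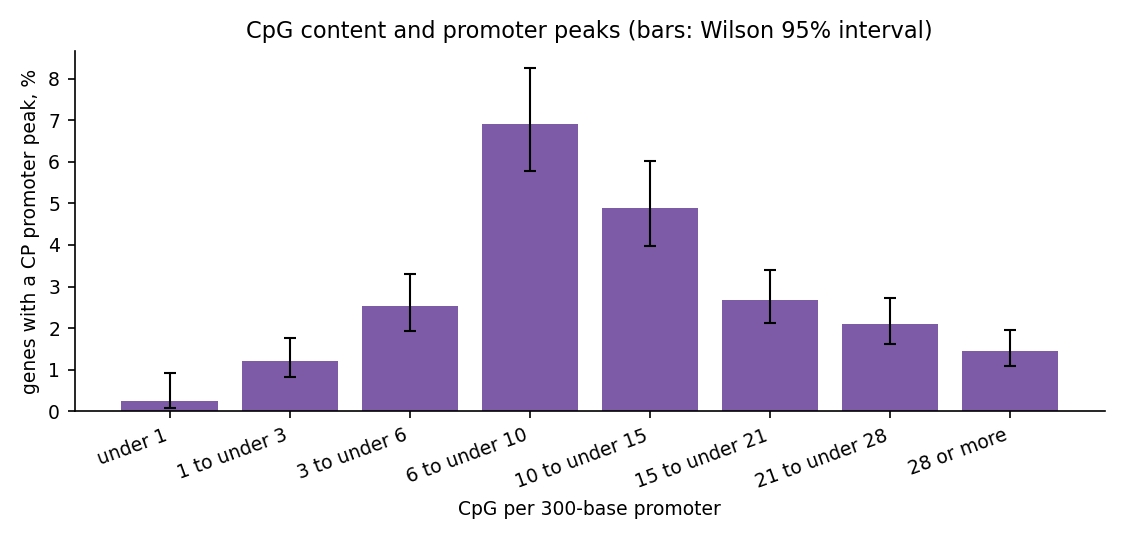
Percent of autosomal protein-coding genes with a CP promoter peak by the number of CpG in their 300-base RefSeq promoter; bars show Wilson 95% intervals. The share is highest, 6.92%, at 6 to under 10 CpG and lower on both sides.

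The germline promoters with a peak had a median of 18 CpG (24 genes with a sequence), against 11 over all genes with a promoter peak. Housekeeping promoters, none with a peak, had 23, and olfactory receptor promoters had 1. Germline members without a promoter peak had 19.5 (12 genes), so the 2 germline groups overlapped in CpG number (quartiles 14 and 23.25 against 14 and 28.88). The 6-letter E-box CACGTG, which reads the same on both strands, was in the promoter of 9.01% of all genes with a sequence. It was in 10 of 24 germline promoters with a peak and in 5 of 12 without one, 41.7% of each. Of the promoters printed above it is in Sycp1, Mael and Plagl1. A match is a description of the letters and not a binding site.

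CP peaks within 10 kb were assigned to 11825 genes, of which 8675 had one inside, with a median of 2 peaks per gene. Of these genes 4019 (34.0%) had 1 peak and 270 had 10 or more (213 by peaks inside the gene), which among the autosomal protein-coding genes of the RefSeq table is 1.3%, and the genes with 10 or more took 6.67% of all peaks. Peaks per gene were not corrected for gene length, and long genes offer more room. Genes of chromosome 18 are counted but not named here.

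Camta1, a calmodulin-binding transcription activator, had 39 CP peaks, all inside the gene, of 7 to 87 tags (median 15). Cdh13, a cadherin without a cytoplasmic tail, had 30, of 7 to 79 tags, and Cdh23, a cadherin of the inner ear, had 27, of 8 to 113. Gabbr2, a subunit of the GABA-B receptor, had 25. Nav2, Trerf1, Ksr2, Slc39a11 and Agap1 had 23 each. Grip1, a scaffold of AMPA receptors, had 22 with up to 198 tags, and Rbfox3 (D11Bwg0517e in the files), the neuronal splicing factor known as NeuN, had 22 as well. Sdk1, a synaptic adhesion protein, had 21, of which the largest held 328 tags. None of these 12 genes had a CP promoter peak. V/SVZ had more peaks than CP in 10 of the 12, for example 52 at Camta1 and 30 at Rbfox3, and fewer at Trerf1 (20) and Grip1 (21), in a list that goes to lower folds. These counts lean on regions of lower fold. Among peaks with a fold of at least 27.51, Camta1 kept 19 peaks and Rbfox3 5, and 18 genes had 10 or more.

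**Figure D4:**
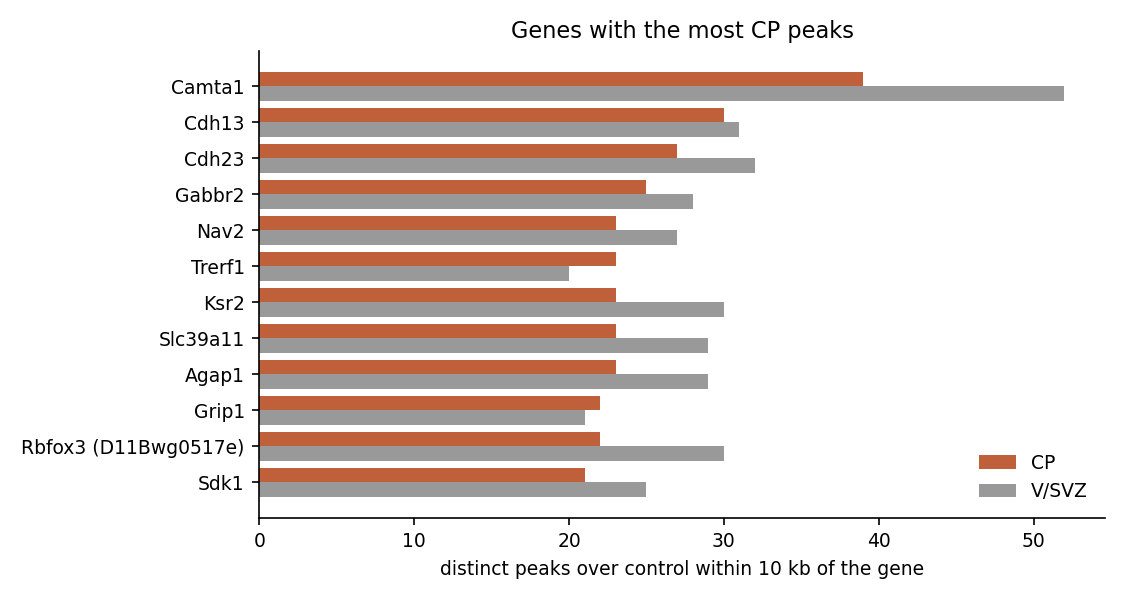
Number of distinct peaks over control within 10 kb of the 12 genes with the most CP peaks (chromosome 18 left out), in CP and in V/SVZ, 1 library each. CP counts run from 21 to 39, and V/SVZ has the larger count in 10 of the 12 genes.

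Several lists of neuronal membrane proteins were read beside the 56.1% of all genes with a peak and the 2.66% with a promoter peak. Voltage-gated calcium and sodium channel genes had a CP peak at 22 of 26 (84.6%, 66.5 to 93.9%), with a median of 6 peaks per gene against 1 over all genes. Cacna1d, an L-type calcium channel, had 21, Cacna1a 18, and the sodium channel gene Scn8a 13. Promoter peaks were present at Cacnb4 (11 tags, no listed V/SVZ peak) and Scn10a (15 tags in CP and 9 in V/SVZ). Glutamate receptor genes were at 22 of 25 (88.0%, 70.0 to 95.8%), led by the kainate receptor gene Grik3 with 14, and 3 had promoter peaks: Grm4 (98 tags in CP, 33 in V/SVZ), Grin2b and Grin2a (20 tags, no listed V/SVZ peak). Cadherins were at 18 of 23, with 15 peaks at Cdh4 and 11 at Cdh22. A list of synaptic adhesion and other large neuronal genes was at 22 of 30 (73.3%, 55.6 to 85.8%, which includes the 56.1%), with 14 peaks at Csmd1 and 12 each at Nrxn2 and Macrod2, the last an ADP-ribosylhydrolase and no adhesion gene. The receptor phosphatase gene Ptprs had the 1 promoter peak of that list, with 50 tags in CP and 6 in V/SVZ (ratio 8.33, 3.57 to 23.8). Such genes are often long, and gene length was not tested. Clustered protocadherins were at 52 of 57, but through 40 distinct peaks that overlapping transcripts share. Genes of DNA methylation and its removal were at 15 of 19, with 8 peaks at the de novo methyltransferase gene Dnmt3a, 4 at the maintenance enzyme gene Dnmt1, and 0 at Tet1 and Tet3. The Camta family was at 2 of 2, with 3 peaks at Camta2.

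CP peaks were denser towards the distal ends of most chromosomes. Density ran from 15.8 peaks per Mb on chromosome 14 to 26.3 on chromosome 11, measured between the first and the last listed peak. Chromosomes 17 (25.8), 5 (25.1) and 19 (25.03) followed chromosome 11. With each chromosome split into 10 equal parts, the last part held 15.04% of all peaks and the part before it 13.0%, against 7.75 to 9.66% in each of the others. The last part was the densest on 6 of 19 chromosomes and the part before it on 5. Chromosome 19 had 19.5% of its peaks in its first part and 11.2% in its last. Median tags were alike along the chromosome, 16 to 18 in every part.

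**Figure D5:**
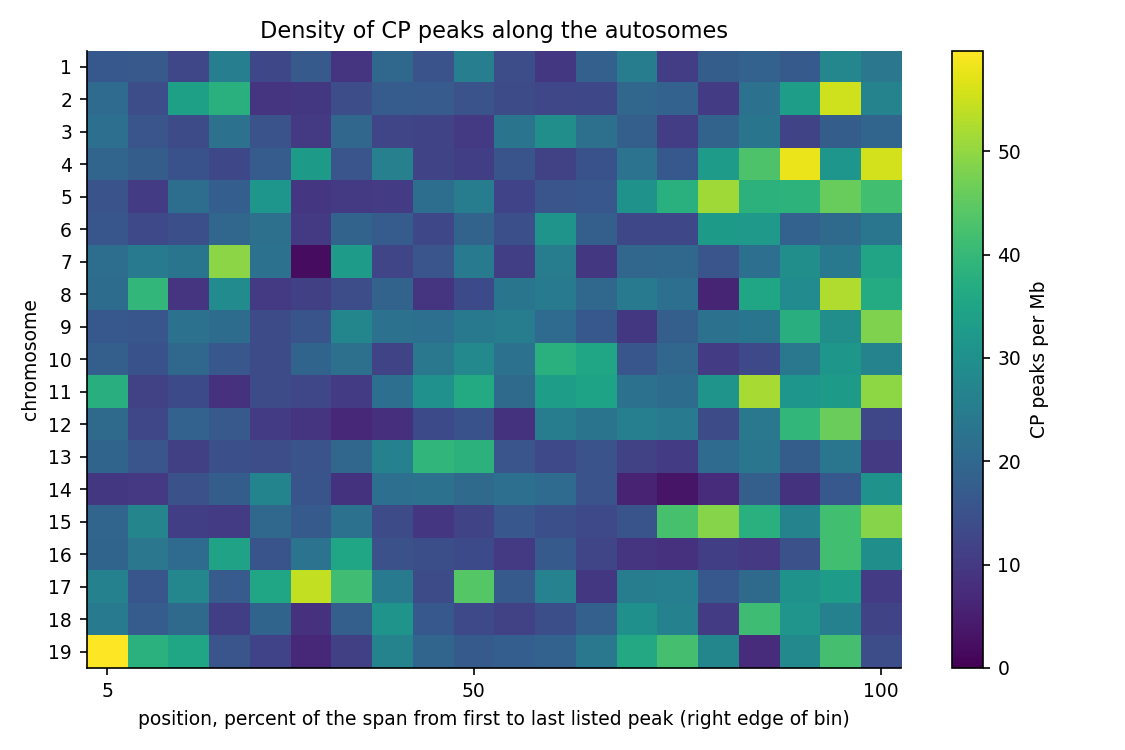
CP peaks per Mb in 20 equal parts of each autosome, from the first listed peak (left, centromere side in the mouse) to the last (right); colour gives the density. On chromosomes 3, 7, 10, 13, 17 and 19 the densest part is among parts 1 to 12, and on the others among parts 16 to 20.

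The median 1 Mb window held 17 CP peaks (quartiles 11 and 28), and the 242 densest of the 2415 windows with a peak held 24.9% of all peaks, each with 42 or more. The densest, with 73 peaks, was on chromosome 17 (28000001 to 29000000, mm9). There Anks1, an ankyrin repeat adaptor gene, had 15, and Ppard, a nuclear receptor of fatty acid metabolism, had 8. On chromosome 9 (119000001 to 120000000) the window of 72 peaks included 10 at Scn10a and 8 at Scn11a, sodium channel genes of peripheral sensory neurons. On chromosome 5 (135000001 to 136000000) 72 peaks included 12 at Hip1, a huntingtin-interacting protein, and 4 each at Eln and Limk1. The window of 70 on chromosome 2 (167000001 to 168000000) included 6 each at B4galt5 and Slc9a8. That of 70 on chromosome 4 (141000001 to 142000000) had 15 at 9030409G11Rik, 11 at Fhad1 and 7 at Spen, a transcriptional corepressor. The window of 70 on chromosome 8 (123000001 to 124000000) was unlike these, with 5 peaks inside genes. It held 2 peaks each at Irf8 and Foxl1 and 1 at Foxc2, all transcription factor genes. V/SVZ had 73 to 85 peaks in these 6 windows, and the counts of both layers rose together over windows (Spearman's rho 0.95 over 2415 windows, which share the genome's CpG content and mappability). The ranking leans on regions of lower fold too: among peaks with a fold of at least 27.51, none of the 10 densest windows was again among the 10 densest.

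Within such loci the peaks were separate rather than contiguous. The median gap between neighbouring peaks was 21959 bp (quartiles 9557 and 53586). With gaps of up to 5 kb joined, 17.2% of peaks lay in runs of 2 or more and the longest run had 5. A run at Adamts10, a secreted metalloprotease gene, held 5 peaks of 10 to 87 tags over 13.5 kb (chromosome 17, 33674919 to 33688451), 1 of which had a V/SVZ partner. The run at Mrps6, a mitochondrial ribosomal protein gene, held 5 of 7 to 12 tags over 14.7 kb, of which 2 were shared.

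Of the 10 regions with the most tags outside chromosome 18, Sfi1 was the only one at a promoter. The highest, with 1974 tags in CP and 1468 in V/SVZ over 1123 bp, lay inside a gene (chromosome 7, 4706773 to 4707895). It was assigned to Cox6b2, Fam71e2 and Suv420h2, the last a histone H4 methyltransferase gene. A peak inside Vapb, an endoplasmic reticulum membrane protein gene, held 1419 and 1165, and a peak 1325 bp downstream of Shq1 held 1300 and 960. Acap2 (1064 and 590), Synj2, a phosphoinositide phosphatase gene (1003 and 657), and Tex2 (942 and 751) had theirs inside the gene, and Kif3c, a kinesin gene, had one 7365 bp upstream (1064 and 755). The other 2 of the 10 had no gene. The fold of these 10 was 15.43 to 26.71, and all 10 had a V/SVZ partner. They held 938 to 1758 tags per kb, against a median of 43.9 over all autosomal CP peaks. Whether they lie in repeated sequence was not tested. Their median ratio was 1.43, and 1 of them, Sfi1, was above 1.81. Of the germline promoters 22 of 26 were above it. These sets were chosen with these values in view, and the difference is a description.

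The longest CP region, 2688 bp with 284 tags in CP and 121 in V/SVZ, lay inside Tshz3, a zinc finger factor (chromosome 7, 37553791 to 37556478). Igsf9b, a cell adhesion gene of synapses, had one of 2570 bp over its 3′ end (318 and 92), and Tnxb, a tenascin of the matrix, one of 2535 bp at a 5′ end (278 and 127). Others of more than 2 kb lay inside Gltscr1 (242 and 50), Kank1 (212 and 94) and Rere, a corepressor (103 and 83). Those at Gm7120 (2576 bp, 582 tags) and Gm7247 (2409 bp, 457 tags) had no listed V/SVZ peak. In all, 1457 CP peaks (2.86%) were 1 kb or longer, and these were 11.1% of promoter peaks and 3.58% of peaks inside genes. As stated above, a longer peak is more likely to span a 5′ end.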

How the data were processed

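Genomic DNA was enriched for methylated fragments and sequenced, with 1 library per tissue, per the labels' protocols. The submitters' processing notes name CASAVA 1.8, Bowtie and the build mm9, and the peak tables carry the column names of MACS, per the file headers. Its version and settings and the control were not given in the sources used here. The deposited tags are a count of reads per peak, not normalized. The deposited fold is the authors' ratio of a peak to its local expectation. The deposited significance is a score, the authors' -log10 p times 10, and the deposited false discovery rate in percent was 0 for every control peak. Both were not used further.

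Each peak was counted once, with the promoter first, then inside, 3′ end, upstream, downstream and no gene. Of 11825 gene IDs, 11780 (99.6%) were in a RefSeq table of assembly GRCm38.p6, which was used for names, the set of 20665 genes and promoter sequences. Shares carry Wilson and tag ratios exact binomial 95% intervals, for counting error only. Reads without molecular identifiers are not independent molecules. With 1 library per tissue no test was made. Scripts (Python 3.11.15, pandas 2.3.3, scipy 1.17.1) were tested on simulated data. The members and lists were chosen with earlier results of these data known. Named genes were the 12 with the most peaks, the 10 peaks with the most tags and the 10 longest, the 12 promoter peaks with the most tags, the 6 densest windows, and up to 4 members of each list by peaks and by promoter tags. Chromosome 18 was left out when the genes with the most peaks, the tag-rich and longest peaks and the densest windows were picked. Further members of the lists, members without a peak and the runs were named after their values were seen. The 2 tables of direct comparison were not used.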

Additional observations from a re-analysis of the deposited data

How the results depend on the processing

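With peaks of fold 27.51 or more, 26096 remained, with a median of 20 tags and 373 bp. Then 34.9% lay inside genes, 54.72% had no gene, 3.955% were downstream and 0.2146% at a 3′ end. Genes with 10 or more peaks fell to 18, the share of peaks in the densest 10% of windows to 19.71%, and promoter peaks to 10 germline and 1 imprinted genes. The share of all genes with a promoter peak was not counted there, and 1.058% of the peaks were at promoters. Of 26 gene lists, 11 changed by over 1.5 times in their count of genes with a peak, and 8 did with peaks inside genes only. The count of all genes with a peak itself fell, from 11825 to 8090 at that fold and to 8675 with peaks inside genes only. At a fold of 27.51 or more the 12 named genes had 5 to 19 peaks. With 10 tags or more, medians were 22 tags and 408 bp, 1.251% were at promoters, 41.27% inside, 47.78% with no gene and 72.29% shared with V/SVZ. Counted per deposited line, promoters were 1.016%, upstream 8.676%, downstream 10.19% and no gene 39.38%. A promoter window of 2 kb gave 1.956% promoter and 4.613% upstream. The densest 10% of windows held 26.22% with windows of 500 kb. Overlap was 59.8% when 50% of the CP peak was asked for and 60.57% with both lists from a fold of 14.71, where V/SVZ had 42.67% inside. Intervals wholly above the median ratio fell from 17 to 10 germline promoters beside peaks of the same tag class. The median ratio was 1.636 per kb and 1.81 in pairs of 1 to 1. The causes were not tested. No paired analysis was possible because each tissue has 1 library. The depth of a peak, a median of 17 tags, limits single ratios.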
